A study of Mus musculus with 88 samples.

Results

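The 10 genes described here, Hk2, Pfkfb3, Pfkl, Pgk1, Ldha, Slc16a3, Pdk1, Vegfa, Adm and Bnip3, were chosen by name as hypoxia-induced genes of glycolysis, lactate export and secreted signals. They are 10 of the 54532 genes in the count table, and all 10 passed the filter on low counts. Polyadenylated RNA was measured in 88 cortical punches of 44 C57BL/6 mice, females and males, 1 punch of 4 mm from each hemisphere. Injured mice, aged 8 to 9 weeks, had received a controlled cortical impact over the right somatosensory cortex, in which a piston of 2 mm struck the exposed brain at 6.0 m/s to a depth of 1 mm for 100 ms. The surgery comprised isoflurane anaesthesia, a craniotomy of 3 mm and buprenorphine at 0.05 mg/kg, and all mice were perfused before the punches were taken. The groups were naive mice (7 females and 6 males), mice at 24 h (7 females and 8 males) and mice at 72 h after impact (9 females and 7 males). The right punch, which held the injury in injured mice, is called ipsilateral, also in naive mice, and the left contralateral. No group had surgery without impact, so impact cannot be told apart from craniotomy, anaesthesia and buprenorphine.

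Cells short of oxygen stabilise hypoxia-inducible factor 1 (HIF-1), whose alpha subunit is otherwise hydroxylated by the EGLN enzymes, bound by the VHL protein and degraded. HIF-1 binds DNA at a short core motif and induces glucose transporters, most glycolytic enzymes, lactate export and secreted signals that act on vessels. Glycolysis converts glucose to pyruvate in the cytoplasm, and lactate dehydrogenase converts pyruvate to lactate, which leaves the cell through monocarboxylate transporters. Brain cortex burns mostly glucose, and a contusion disturbs its blood flow. Many of the same transcripts also rise when leukocytes and glia are activated, whatever the oxygen level.

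Totals were 10604917 to 26357622 counts per library. Values per library below are CPM (counts-per-million) after scaling by TMM (trimmed mean of M values) factors. Both libraries of 1 mouse, LF3, a female at 72 h, stood apart from all others. Their TMM factors were 0.772 ipsilaterally and 0.612 contralaterally, against 0.935 to 1.135 and 0.854 to 1.06 in the other libraries of those sides. Mitochondrial transcripts took 10.48% and 7.80% of their counts (other libraries 2.35 to 6.24% and 2.80 to 6.74%). A list of 6 neuronal markers summed to 13460 and 14770 CPM, against 2812 to 6817 and 5329 to 7743 CPM in the others. LF3 was kept as labelled, and values without it are given beside the results that it changes most. The ipsilateral library labelled PF1, a female at 72 h, had 57.55 CPM of the Y-linked Ddx3y and 0.1075 CPM of Xist. The ipsilateral library of PM1, also at 72 h, had the reverse, 0 CPM of Ddx3y and 457 CPM of Xist. Its labels give it different sexes, so it entered no comparison, which left 15 ipsilateral libraries at 72 h. PF1 was kept as labelled. Whether these 2 libraries were exchanged was not tested. If they were, the sides of PF1 would come from different mice. All 6 neuronal and all 5 astrocytic markers were detected in every group of the labelled cortex. The labels name 3 batches. Naive and 24 h mice make up batch A, 72 h mice alone batch C, and mice of every group batch B, where alone 72 h and naive cortex met.

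The promoters show where the members carry the core motif of HIF-1. For each gene, the 250 bases before the first start listed by RefSeq (GRCm38.p6) were searched on both strands for ACGTG and GCGTG. The windows of Ldha, Slc16a3 and Pfkl lie wholly inside the gene as annotated by GENCODE M21, downstream of its outermost start. The palindrome CACGTG counts once on each strand. Either motif stood in 9 of 10 members, against 38.6% of 27025 promoters of the same length, and ACGTG in 6 of 10, against 16.6%. Vegfa had neither in this window. Printed are Hk2, Slc16a3 and Adm, whose transcripts rose most, and Ldha and Bnip3, which held the most matches and of which Ldha rose and Bnip3 fell. Sequences run 5′ to 3′ on the gene's strand, leave out bases in annotated exons, and have matches on either strand in capitals (CACGT and CACGC are the motifs read on the other strand).
Hk2, chr6:82774455-82774704, minus strand: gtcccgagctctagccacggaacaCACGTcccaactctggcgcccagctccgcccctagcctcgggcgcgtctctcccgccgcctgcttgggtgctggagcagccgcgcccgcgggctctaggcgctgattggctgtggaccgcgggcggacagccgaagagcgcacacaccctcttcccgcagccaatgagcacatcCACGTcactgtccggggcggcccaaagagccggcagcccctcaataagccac
Ldha, chr7:46845554-46845803, plus strand: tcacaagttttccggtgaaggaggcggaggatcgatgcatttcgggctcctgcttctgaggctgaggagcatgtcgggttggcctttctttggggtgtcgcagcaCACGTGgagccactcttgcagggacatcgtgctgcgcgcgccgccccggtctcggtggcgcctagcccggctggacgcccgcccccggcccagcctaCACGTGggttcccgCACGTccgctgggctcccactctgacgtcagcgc
Slc16a3, chr11:120948817-120949052, plus strand: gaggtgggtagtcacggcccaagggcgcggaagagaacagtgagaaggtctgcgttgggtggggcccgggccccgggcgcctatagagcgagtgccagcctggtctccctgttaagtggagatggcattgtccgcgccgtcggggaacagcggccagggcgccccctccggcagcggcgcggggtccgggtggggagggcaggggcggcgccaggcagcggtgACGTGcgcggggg
Adm, chr7:110627407-110627656, plus strand: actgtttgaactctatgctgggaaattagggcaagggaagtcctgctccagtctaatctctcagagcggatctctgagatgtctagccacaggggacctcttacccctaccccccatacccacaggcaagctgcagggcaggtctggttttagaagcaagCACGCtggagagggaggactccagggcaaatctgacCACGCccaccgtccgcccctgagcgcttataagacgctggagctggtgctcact
Bnip3, chr7:138909520-138909756, minus strand: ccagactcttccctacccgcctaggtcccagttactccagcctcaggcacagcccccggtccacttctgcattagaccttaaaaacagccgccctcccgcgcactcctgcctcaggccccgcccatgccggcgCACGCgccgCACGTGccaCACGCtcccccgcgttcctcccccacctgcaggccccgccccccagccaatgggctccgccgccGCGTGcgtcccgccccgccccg
Ldha and Bnip3 held 5 matches each, a number of at least 3 being found in 6.69% of all promoters. Hk2, Slc16a3 and Adm held 2 each (one of those of Slc16a3 lies in an annotated exon and is not printed), and 16.8% of all promoters held at least 2. A match is only a match of letters and was not tested for binding.

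In injured cortex at 24 h, 7 of the 10 genes rose against naive ipsilateral cortex and none fell: Hk2, Pfkfb3, Pfkl, Pgk1, Ldha, Slc16a3 and Adm. Of all 19126 genes tested, 43.0% were called in either direction, 22.9% as higher and 20.1% as lower (edgeR quasi-likelihood test, Benjamini-Hochberg adjusted p under 0.05). The members' median log2 fold change was 0.48, and that of all genes 0.0057. At 72 h, 6 of 10 rose (Hk2, Pfkfb3, Pgk1, Ldha, Slc16a3 and Adm) and 2 fell (Vegfa and Bnip3), where 48.5% of all genes were called, 27.8% as higher and 20.7% as lower. The medians were 0.26 for the members and 0.06 for all genes. At 72 h against 24 h, 4 fell (Pfkl, Vegfa, Adm and Bnip3) and none rose, with 37.0% of all genes called, 21.7% as higher and 15.3% as lower. Without LF3, Hk2 was also called, as higher at 72 h than at 24 h (0.68, adjusted p = 6.52e-05), but not within batch B alone with LF3 kept (0.47, adjusted p = 0.259). These shapes over time stand out among the members: Hk2 and Slc16a3 high at both times, Adm highest at 24 h, and Vegfa and Bnip3 low at 72 h. In bulk tissue, fewer cells of a type and less RNA per cell cannot be told apart.

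**Figure D1:**
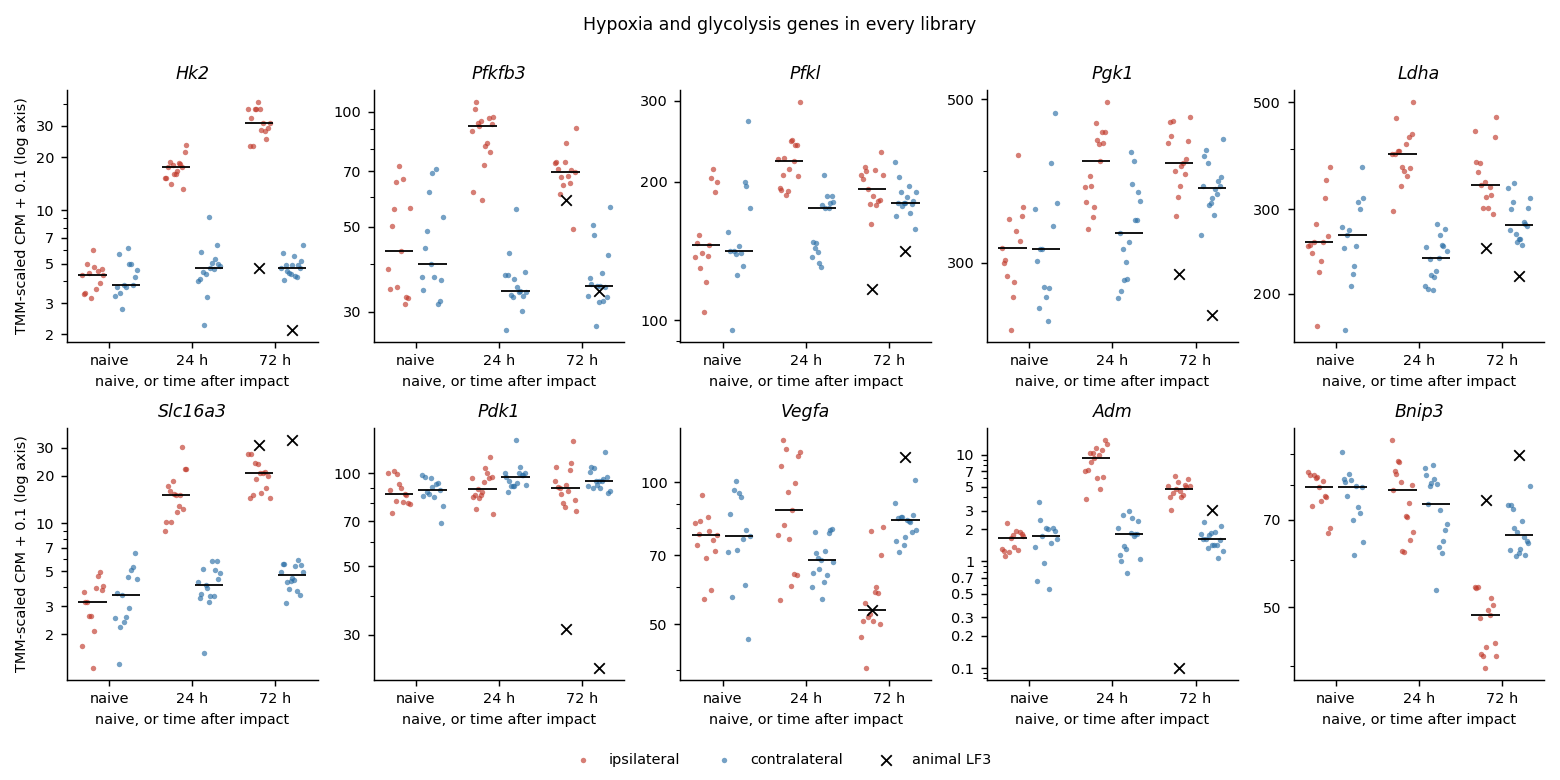
TMM-scaled CPM plus 0.1 (log axis) of each gene in every library of the naive, 24 h and 72 h groups, ipsilateral left and contralateral right, with bars at the medians and crosses for both libraries of mouse LF3. Ipsilateral Hk2, Slc16a3 and Adm lie above all naive libraries at 24 h, ipsilateral Bnip3 at 72 h lies below all naive ipsilateral libraries except for LF3, and contralateral values of mice other than LF3 stay near the naive ones.

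Hk2 (ENSMUSG00000000628, chromosome 6, 82725025 to 82774454, minus strand; GENCODE M21, GRCm38) encodes hexokinase 2, the inducible enzyme that traps glucose in the cell. Its ipsilateral level was 3.10 to 5.88 (median 4.21) CPM in 13 naive mice, 13.2 to 23.4 (median 17.5) CPM in 15 mice at 24 h and 4.64 to 41.0 (median 31.0) CPM in 15 mice at 72 h. Every 24 h library lay above every naive one, as did every 72 h library other than LF3, and without LF3 the 72 h range was 22.9 to 41.0 (median 31.0) CPM. Groups were non-overlapping in that direction for 5.09% of all genes at 24 h and, without LF3, for 12.7% at 72 h. Hk2 rose 4.05-fold at 24 h (log2 2.02 ± 0.15 SE, adjusted p = 2.77e-14) and 5.51-fold at 72 h (2.46 ± 0.21, adjusted p = 1.53e-12). Within batch A and batch B the 24 h change was 2.02 and 2.04, and within batch B the 72 h change was 2.51, all called. Against 24 h, the 72 h level differed by 0.44 ± 0.19 (adjusted p = 0.0698), and without LF3 it rose by 0.68 (adjusted p = 6.52e-05), as it did with no batch term (0.79, adjusted p = 9.05e-06). Within batch B, which alone holds both times and includes LF3, the difference was 0.47 and not called (adjusted p = 0.259). Contralateral Hk2 stayed low, at 2.67 to 6.07 (median 3.69) CPM in naive mice, 2.17 to 9.09 (median 4.60) CPM at 24 h and 2.01 to 6.25 (median 4.64) CPM at 72 h.

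Pfkfb3 (ENSMUSG00000026773, chromosome 2, 11471433 to 11554077, minus strand) makes fructose 2,6-bisphosphate, the strongest activator of phosphofructokinase. Its ipsilateral level was 31.3 to 72.1 (median 43.2) CPM in naive mice, 58.8 to 106 (median 91.8) CPM at 24 h and 49.2 to 90.6 (median 69.7) CPM at 72 h, so that both injured groups overlapped the naive one. Pfkfb3 rose 1.91-fold at 24 h (log2 0.93 ± 0.11, adjusted p = 3.53e-09) and 1.66-fold at 72 h (0.73 ± 0.16, adjusted p = 2.94e-04). The 24 h change was 0.82 within batch A and 1.10 within batch B, and the 72 h change 0.83 within batch B. Pfkl (ENSMUSG00000020277, chromosome 10, 77986947 to 78010083, minus strand), the liver-type subunit of phosphofructokinase, the enzyme of the committed step of glycolysis, was at 104 to 213 (median 145) CPM in naive, 187 to 298 (median 222) CPM in 24 h and 117 to 232 (median 192) CPM in 72 h ipsilateral cortex. It was higher than naive at 24 h alone among the injured times (log2 0.44 ± 0.07, adjusted p = 1.59e-06), with 0.06 ± 0.11 at 72 h (adjusted p = 0.649). Its level at 72 h was below that at 24 h by a log2 change of -0.38 ± 0.10 (adjusted p = 0.00322). The 24 h rise of Pfkl was 0.60 within batch A, and 0.22 within batch B, where it was not called (adjusted p = 0.265). With no batch term Pfkl was also called at 72 h (0.29, adjusted p = 0.00487), and the drop from 24 h was not called within batch B alone (-0.30, adjusted p = 0.106).

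Pgk1 (ENSMUSG00000062070, chromosome X, 106187100 to 106203699, plus strand), which encodes phosphoglycerate kinase, an ATP-forming enzyme of glycolysis, changed least among the genes that rose. It was at 243 to 420.2 (median 314) CPM in naive, 333 to 496 (median 412) CPM in 24 h and 289.6 to 472 (median 409) CPM in 72 h ipsilateral cortex, with wide overlap. Pgk1 rose 1.23-fold at 24 h (log2 0.30 ± 0.05, adjusted p = 1.86e-05) and 1.17-fold at 72 h (0.22 ± 0.08, adjusted p = 0.0242). Ldha (ENSMUSG00000063229, chromosome 7, 46841475 to 46855627, plus strand), the lactate dehydrogenase subunit of glycolytic tissue, was at 171 to 366 (median 256) CPM in naive, 297 to 502 (median 391) CPM in 24 h and 248 to 466.1 (median 336) CPM in 72 h ipsilateral cortex. Ldha rose 1.43-fold at 24 h (0.51 ± 0.08, adjusted p = 1.71e-06) and 1.23-fold at 72 h (0.30 ± 0.12, adjusted p = 0.0426). At 24 h, Pgk1 changed by 0.30 within batch A and 0.28 within batch B (adjusted p = 0.0823), and Ldha by 0.67 and 0.28 (adjusted p = 0.126), so that neither was called within batch B alone. The 72 h calls of both were close to the threshold. Within batch B the 72 h change was 0.22 for Pgk1 and 0.16 for Ldha, neither called. Without PF1 they were 0.17 (adjusted p = 0.0962) and 0.25 (adjusted p = 0.107). Leaving out any 1 of 16 mice ended the 72 h call of Ldha (adjusted p 0.0501 to 0.113), and leaving out PF1, PF2 or PM2 that of Pgk1 (0.0962, 0.0667 and 0.0694). Processed pseudogene copies held at most 0.405% of the counts of Pgk1 and 0.275% of those of Ldha.

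Slc16a3 (ENSMUSG00000025161, chromosome 11, 120948480 to 120960868, plus strand) encodes MCT4, a monocarboxylate transporter that exports lactate from glycolytic cells. Ipsilaterally it was at 1.12 to 4.87 (median 3.11) CPM in naive mice, 8.86 to 30.3 (median 15.1) CPM at 24 h and 14.3 to 31.0 (median 20.6) CPM at 72 h. All libraries at both injured times lay above all naive ones, which held for 5.09% of all genes at 24 h and 7.73% at 72 h. Slc16a3 rose 4.67-fold at 24 h (log2 2.22 ± 0.17, adjusted p = 5.16e-14) and 5.78-fold at 72 h (2.53 ± 0.24, adjusted p = 1.31e-11). Within batches the 24 h change was 2.34 (A) and 2.02 (B) and the 72 h change 2.40 (B). Between 72 h and 24 h it differed by 0.31 ± 0.22 (adjusted p = 0.281, 95% interval -0.12 to 0.74). Contralaterally it was at 1.20 to 6.41 (median 3.43) CPM in naive mice, 1.42 to 5.72 (median 4.01) CPM at 24 h and 3.04 to 33.7 (median 4.63) CPM at 72 h, and the highest of these, 33.7 CPM, was LF3. The other 15 contralateral libraries at 72 h reached at most 5.75 CPM.

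Pdk1 (ENSMUSG00000006494, chromosome 2, 71873224 to 71903858, plus strand), a kinase that shuts pyruvate out of the mitochondrial pathway by inhibiting pyruvate dehydrogenase, was not called at either time. It was at 74.5 to 102 (median 85.8) CPM in naive, 73.5 to 113 (median 89.1) CPM in 24 h and 31.3 to 128 (median 89.7) CPM in 72 h ipsilateral cortex. Its log2 changes were 0.05 ± 0.10 at 24 h (adjusted p = 0.74, 95% interval -0.15 to 0.24) and -0.13 ± 0.15 at 72 h (adjusted p = 0.501, -0.43 to 0.17). Within batches the 24 h change was -0.05 (A) and 0.19 (B), and the 72 h change -0.01 (B), none called. The lowest 72 h value belonged to LF3, and the other 14 mice at that time ranged over 75.4 to 128 (median 90.0) CPM.

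Of the secreted signals, Adm (ENSMUSG00000030790, chromosome 7, 110627661 to 110629820, plus strand) encodes adrenomedullin, a peptide that dilates vessels and tightens the endothelial barrier. Its ipsilateral level was 1.01 to 2.18 (median 1.55) CPM in naive mice, 3.71 to 13.8 (median 9.14) CPM at 24 h and 0 to 6.17 (median 4.66) CPM at 72 h. All 24 h libraries lay above all naive ones, and all 72 h libraries did so except LF3, which had no Adm count. The shares of all genes that did the same are those given with Hk2. Adm rose 5.57-fold at 24 h (log2 2.48 ± 0.23, adjusted p = 5.63e-12), with 2.44 within batch A and 2.53 within batch B. At 72 h it was 1.99-fold higher than naive (0.99 ± 0.33, adjusted p = 0.0115). The 72 h rise was 1.25 without LF3, and 1.05 and not called within batch B (adjusted p = 0.154). With no batch term it was 1.56, and without mouse LM2 it was 0.83 and not called (adjusted p = 0.0517). Adm was lower at 72 h than at 24 h (-1.49 ± 0.31, adjusted p = 0.000247, -1.48 within batch B and -0.97 with no batch term).

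Vegfa (ENSMUSG00000023951, chromosome 17, 46016993 to 46032369, minus strand) encodes vascular endothelial growth factor A, which drives vessel growth and leakage. Ipsilaterally it was at 56.4 to 94.0 (median 77.4) CPM in naive mice, 56.3 to 123 (median 87.3) CPM at 24 h and 40.3 to 80.4 (median 53.5) CPM at 72 h. The 24 h values spread on both sides of the naive ones, and most 72 h values lay below the naive median. At 24 h the change was 0.25 ± 0.11 (adjusted p = 0.0577), and 0.26 and 0.23 within batches A and B. It passed the threshold when any 1 of DF3, EM2, FM2, QM2 or RF2 was left out (adjusted p 0.0281 to 0.0453) or when total counts replaced TMM (0.33, adjusted p = 0.0102). At 72 h Vegfa fell to 0.699 of the naive level (log2 -0.52 ± 0.17, adjusted p = 0.0096), with -0.56 within batch B. Against 24 h it was lower at 72 h by a log2 change of -0.76 ± 0.16 (adjusted p = 0.000207, -0.79 within batch B).

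Bnip3 (ENSMUSG00000078566, chromosome 7, 138890836 to 138909519, minus strand) encodes a mitochondrial outer membrane protein that recruits the autophagy machinery and is a standard HIF-1 target. Its ipsilateral level was 66.4 to 84.0 (median 79.2) CPM in naive mice, 61.7 to 95.1 (median 78.3) CPM at 24 h and 39.5 to 75.3 (median 48.5) CPM at 72 h. The 75.3 CPM at 72 h was LF3, and the other 14 mice at 72 h ranged over 39.5 to 54.0 (median 48.2) CPM, below every naive and every 24 h library. Without LF3, 4.73% of all genes had all 72 h libraries below all naive ones and 1.23% had them below all 24 h ones. At 24 h Bnip3 changed by 0.02 ± 0.06 (adjusted p = 0.818, 0.09 and -0.09 within batches A and B). At 72 h it fell to 0.821 of the naive level (log2 -0.28 ± 0.09, adjusted p = 0.0116). The size of this fall depended on the fit: it was -0.43 without LF3, -0.69 with no batch term and -0.37 within batch B. It was -0.23 and not called without mouse PM2 (adjusted p = 0.0653). Against 24 h, Bnip3 was lower at 72 h by a log2 change of -0.30 ± 0.09 (adjusted p = 0.00614), by -0.45 without LF3, by -0.66 with no batch term and by -0.28 within batch B alone, where it was not called (adjusted p = 0.0935). It was not called without mouse PM2 either (adjusted p = 0.0583).

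**Figure D2:**
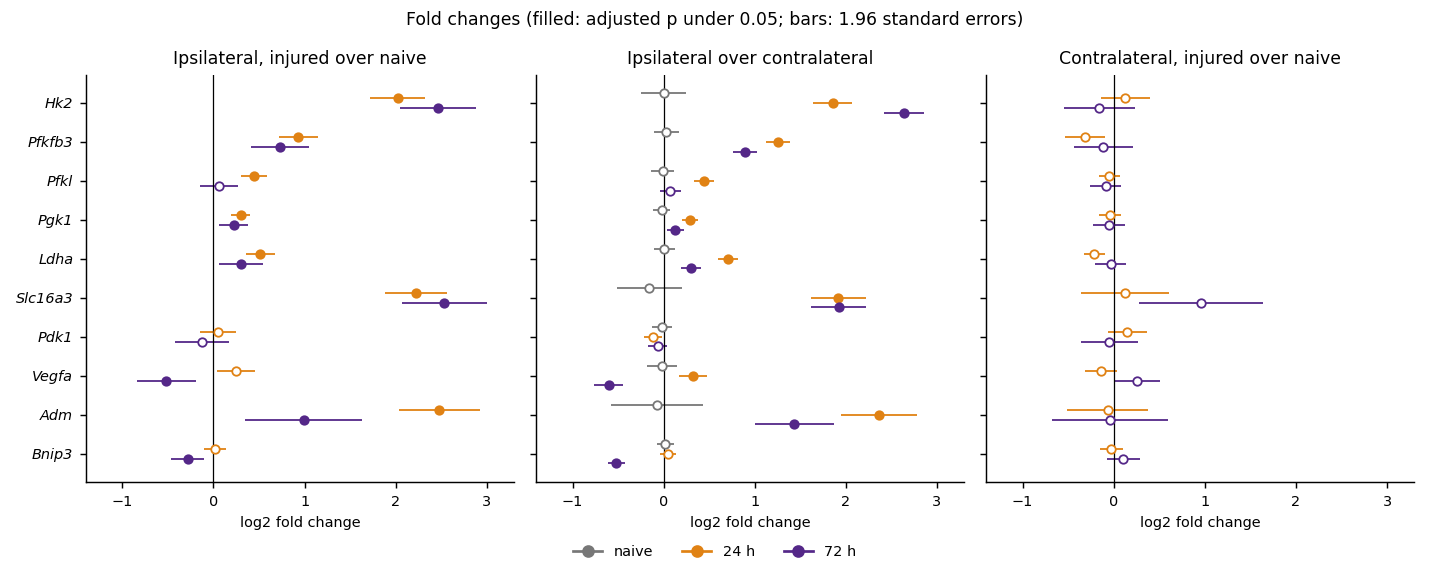
Log2 fold changes of the 10 genes (points, filled where adjusted p was under 0.05) with bars of 95% intervals, for injured over naive ipsilateral cortex, ipsilateral over contralateral cortex and injured over naive contralateral cortex. Hk2, Slc16a3 and Adm lie farthest to the right in the first and second panels, Vegfa and Bnip3 lie left of 0 at 72 h, and no point is filled in the contralateral panel.

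The other hemisphere of the same mouse gives a control that shares the animal, its anaesthesia, its buprenorphine and its batch. The craniotomy exposed the brain at the struck site, so impact and craniotomy cannot be told apart between sides either. With the animal as a block, 8 of the 10 genes were higher on the injured side at 24 h, where 47.7% of 19946 genes were called, 23.7% as higher and 24.1% as lower. They were the 7 that rose against naive and Vegfa, which was 0.32 ± 0.08 higher (adjusted p = 0.000753) and higher in 12 of 15 mice. Vegfa's side difference at 24 h was 0.45 within batch A, and 0.25 within batch B, where it was not called (adjusted p = 0.0845). At 72 h, 6 were higher and 2 lower on the injured side, where 61.7% of genes were called, 31.1% as higher and 30.6% as lower. In naive mice none of the 10 differed between sides, and no gene of the 19946 did at an adjusted p under 0.05 (edgeR), with 574 at an unadjusted p under 0.05.

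Per animal, the log2 ratio of ipsilateral to contralateral CPM (0.5 CPM added to both) showed how the mice varied. For Hk2 it was -0.68 to 0.64 (median -0.10) in 13 naive mice, 0.78 to 2.45 (median 1.82) in 15 mice at 24 h and 1.03 to 2.99 (median 2.63) in 15 at 72 h, above 0 in all injured mice and lowest at 72 h in LF3. The fitted ipsilateral excess of Hk2 was 1.86 ± 0.11 at 24 h and 2.64 ± 0.11 at 72 h. For Slc16a3 the ratio was 1.00 to 2.49 (median 1.99) at 24 h and -0.12 to 2.53 (median 2.05) at 72 h, below 0 only in LF3. Its fitted excess was 1.92 ± 0.15 and 1.92 ± 0.15 (2.07 at 72 h without LF3). For Adm the ratio was 1.29 to 3.16 (median 1.84) at 24 h and -2.79 to 1.91 (median 1.32) at 72 h, again below 0 only in LF3. Its fitted excess was 2.36 ± 0.21 and 1.43 ± 0.22, at 72 h 1.60 without LF3, 1.70 within batch C and 0.83 within batch B, where it was not called (adjusted p = 0.17).

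Bnip3 was lower on the injured side in 15 of 15 mice at 72 h, with ratios of -0.94 to -0.21 (median -0.49), while at 24 h it was lower in 5 of 15. The 72 h ratio nearest 0, -0.21, was that of PF1, and without PF1 the fitted side difference was -0.52 (adjusted p = 3.14e-13). With PF1 kept, the side difference at 72 h was -0.52 ± 0.05 (adjusted p = 1.76e-13), -0.38 within batch B and -0.57 within batch C. Vegfa was lower on the injured side in 13 of 15 mice at 72 h (ratios of -1.07 to 0.04, median -0.56), with a fitted difference of -0.60 ± 0.08 (adjusted p = 1.26e-08), -0.86 within batch B and -0.46 within batch C. These side differences at 72 h do not rest on the link between batches. Pfkfb3 was higher on the injured side in 15 of 15 mice at each time (fitted 1.26 ± 0.07 at 24 h and 0.89 ± 0.07 at 72 h), as was Ldha (0.71 ± 0.06 and 0.30 ± 0.06). Pfkl was higher in 15 of 15 mice at 24 h (0.44 ± 0.06) and in 11 of 15 at 72 h (0.07 ± 0.06, adjusted p = 0.28; called with total counts in place of TMM, 0.20, adjusted p = 0.000791). Pgk1 was higher in 14 of 15 mice at each time (0.29 ± 0.04 and 0.13 ± 0.05). Its 72 h call was lost within batch C (0.09, adjusted p = 0.0553) and without the animal block (adjusted p = 0.0556). Pdk1 was lower in 12 of 15 mice at 24 h but was not called (-0.12 ± 0.05, adjusted p = 0.0603).

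**Figure D3:**
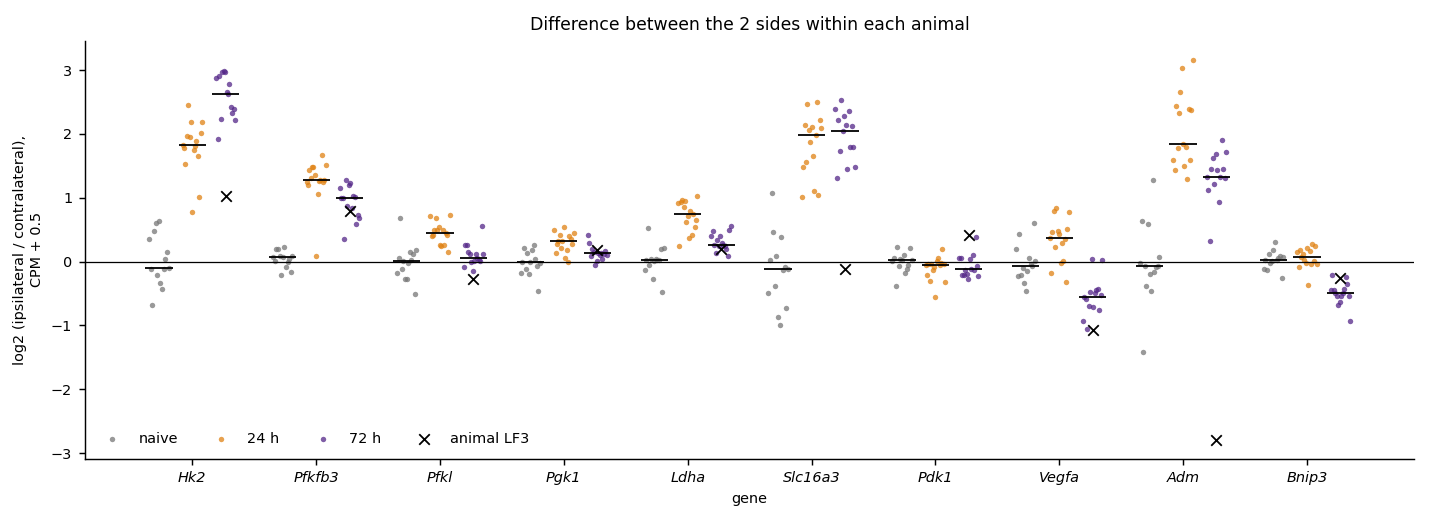
Log2 ratio of ipsilateral to contralateral CPM (0.5 CPM added to both) in each naive mouse, each mouse at 24 h and each at 72 h, with bars at the medians and a cross for LF3. All ratios of Hk2 lie above 0 in injured mice, all ratios of Bnip3 lie below 0 at 72 h, and Vegfa lies mostly above 0 at 24 h and mostly below 0 at 72 h.

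The change in side difference between the times was tested directly, as the 72 h excess minus the 24 h excess in the same fit. It was called for 8 of 10 members, against 35.4% of all genes, 1 in the upward direction (18.9% of all genes) and 7 in the downward direction (16.4%). The ipsilateral excess of Hk2 was larger at 72 h than at 24 h by 0.78 ± 0.15 (adjusted p = 6.87e-05). That of Vegfa was lower by a change of -0.93 ± 0.11 (adjusted p = 9.2e-09), of Adm by -0.93 ± 0.31 (adjusted p = 0.0155) and of Bnip3 by -0.57 ± 0.06 (adjusted p = 1.25e-09). Ldha (-0.41 ± 0.08), Pfkl (-0.37 ± 0.08), Pfkfb3 (-0.36 ± 0.10) and Pgk1 (-0.16 ± 0.06, adjusted p = 0.044) also had a smaller excess at 72 h. Slc16a3 (0.0047 ± 0.24, 95% interval -0.46 to 0.47) and Pdk1 (0.05 ± 0.07) were not called. All 8 calls held without LF3. The call of Pgk1 was lost with total counts in place of TMM (-0.08, adjusted p = 0.267). It was also lost with every gene of at least 1 count (-0.15, adjusted p = 0.313). Within batch B, which alone holds both times, Vegfa (-1.11) and Bnip3 (-0.44) were called, and Hk2 was at 0.75 (adjusted p = 0.0801) and Adm at -1.42 (adjusted p = 0.126). The remaining calls lost within batch B were Ldha (-0.36), Pfkl (-0.30), Pfkfb3 (-0.32) and Pgk1 (-0.02).

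On the contralateral side none of the 10 genes was called against naive at 24 h, where 2.1% of 18436 genes were (0.819% as higher and 1.29% as lower), or at 72 h, where 0.26% were (0.244% and 0.0163%). These shares over all genes varied with the mice and settings used: at 24 h 6.46% were called without LF3, and at 72 h 0.0922% without LF3, 6.8% without PF1 and 7.9% with no batch term. The nearest to a call at 24 h were Ldha (-0.21 ± 0.06, adjusted p = 0.0503) and Pfkfb3 (-0.31 ± 0.11, adjusted p = 0.162). Without LF3, Ldha was called lower at 24 h (-0.21, adjusted p = 0.015). Within batches A and B the contralateral 24 h change of Ldha was -0.10 and -0.30, neither called. Ldha was at 168 to 366 (median 265) CPM in naive, 204 to 278 (median 237) CPM in 24 h and 218 to 339 (median 278) CPM in 72 h contralateral cortex. Contralateral Slc16a3 at 72 h was 0.96 ± 0.35 above naive (adjusted p = 0.145), which rested on LF3, since it was 0.03 without that mouse (adjusted p = 0.998). Vegfa was higher at 72 h than at 24 h contralaterally (0.40 ± 0.11, adjusted p = 0.0247), among 9.21% of genes called, 8.41% as higher and 0.803% as lower. Its contralateral levels were 46.5 to 101 (median 76.7) CPM in naive mice, 56.4 to 79.5 (median 68.5) CPM at 24 h and 71.0 to 113 (median 82.9) CPM at 72 h. The Vegfa call was lost without LF3 (0.27, adjusted p = 0.505), where 0.244% of all genes were called. With total counts in place of TMM that share was 1.94%, with no batch term 3.79% and without PF1 16.5%. Without PF1, Slc16a3 was called higher at 72 h than at 24 h contralaterally (0.97, adjusted p = 0.0381), a fit that still holds LF3.

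Levels of different genes were compared per kilobase of exon (GENCODE M21 union exons), as medians of CPM per kb in ipsilateral cortex. In naive mice the order was Pgk1 (139.9), Ldha (77.4), Bnip3 (35.0), Pfkl (21.8), Vegfa (18.1), Pdk1 (11.03), Pfkfb3 (5.72), Adm (0.957), Hk2 (0.706) and Slc16a3 (0.585). The genes that rose most after injury were thus the lowest in naive cortex. At 24 h Adm stood at 5.65, Hk2 at 2.93 and Slc16a3 at 2.84, and at 72 h Hk2 stood at 5.20, Slc16a3 at 3.88 and Adm at 2.88, still below Pfkfb3 at 9.22.

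Within each enzyme or transporter family, the share of a member in the family's CPM per kb shows which isoform the tissue held (means ± SD over 13 naive, 15 24 h and 15 72 h ipsilateral libraries). Hk2 was 1.55 ± 0.469% of hexokinase 1, 2 and 3 in naive cortex, 4.71 ± 0.517% at 24 h and 9.13 ± 2.73% at 72 h. Hk1, the main hexokinase of brain, held 97.3 ± 0.545% in naive, 90.6 ± 1.95% in 24 h and 78.2 ± 7.92% in 72 h cortex. Hk3, a hexokinase of myeloid cells, held 1.15 ± 0.449% in naive, 4.70 ± 1.71% in 24 h and 12.7 ± 5.35% in 72 h cortex. The glycolytic subunit Ldha gained on the oxidative Ldhb: Ldha held 22.2 ± 2.76% of both in naive cortex, 37.9 ± 2.98% at 24 h and 39.7 ± 6.18% at 72 h. Slc16a3 held 3.98 ± 1.82% of the monocarboxylate transporters Slc16a1, Slc16a3 and Slc16a7 in naive cortex, 12.1 ± 3.05% at 24 h and 13.9 ± 3.13% at 72 h. Slc16a7, which encodes MCT2, the lactate importer of neurons, held 36.7 ± 9.65% in naive, 15.6 ± 3.09% in 24 h and 12.2 ± 3.40% in 72 h cortex. In the fits, the 24 h change of Slc16a7 was -0.45, but 0.04 within batch B alone (adjusted p = 0.904). Its 72 h change was -0.20 with the batch term, -0.81 without that term, and -0.43 without LF3 (adjusted p = 0.0387). Between sides, Slc16a7 was called lower on the injured side at 24 h (-0.52 ± 0.09) and at 72 h (-0.66 ± 0.10). Pfkfb3 held 41.5 ± 7.21% of Pfkfb2, Pfkfb3 and Pfkfb4 in naive cortex, 55.6 ± 3.53% at 24 h and 50.8 ± 4.09% at 72 h. Pfkl held 13.1 ± 1.25% of the phosphofructokinase subunits Pfkl, Pfkm and Pfkp in naive cortex, 15.9 ± 1.47% at 24 h and 17.2 ± 1.50% at 72 h. Pdk1 held 19.6 ± 2.54% of the pyruvate dehydrogenase kinases Pdk1 to Pdk4 in naive cortex, 18.2 ± 1.79% at 24 h and 20.4 ± 3.85% at 72 h. Contralateral shares of Hk2 were 1.55 ± 0.618% in naive mice, 1.68 ± 0.615% at 24 h and 1.54 ± 0.302% at 72 h. The shares pool the batches without adjustment, are descriptions and were not tested.

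**Figure D4:**
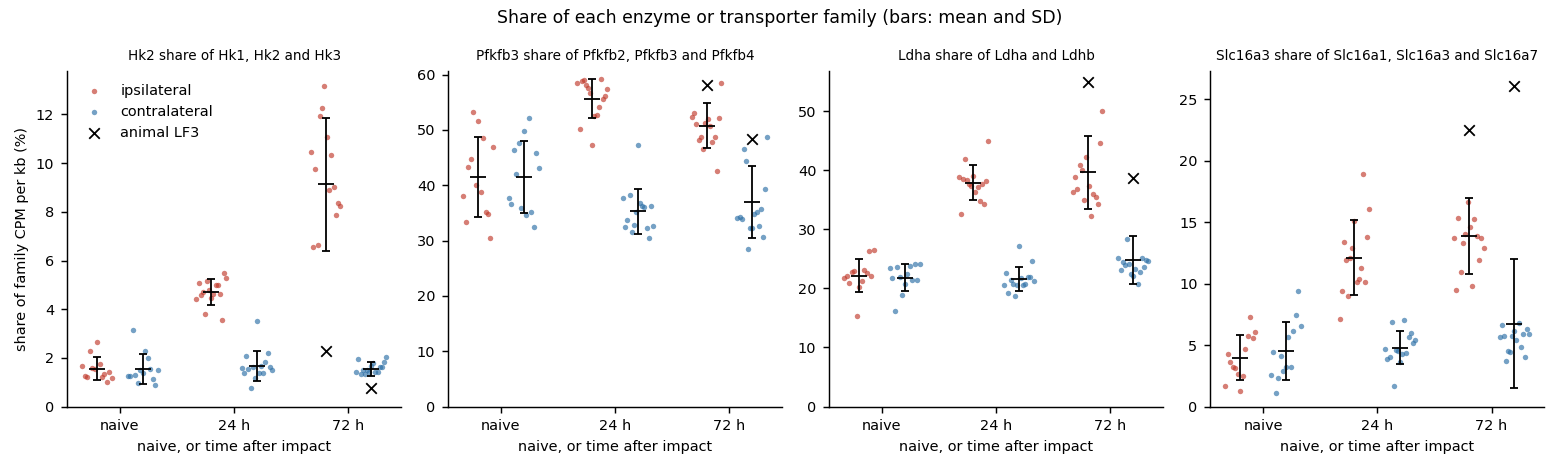
Share of Hk2, Pfkfb3, Ldha and Slc16a3 in their families (percent of summed CPM per kb) in each naive, 24 h and 72 h library, ipsilateral left and contralateral right, with mean and SD bars and crosses for LF3. The ipsilateral share of Hk2 averages 1.55% in naive, 4.71% in 24 h and 9.13% in 72 h cortex, while its contralateral means stay between 1.54 and 1.68%.

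The same fit gave the changes within each sex. At 24 h, 7 members rose in females (29.1% of all genes called, 16.2% as higher and 12.9% as lower) and 8 in males (29.1%, 16.1% as higher), the additional gene being Vegfa (0.11 ± 0.15 in females, adjusted p = 0.639, and 0.39 ± 0.15 in males, adjusted p = 0.0482). The male call of Vegfa was lost in 33 of 43 fits that left out 1 mouse each. At 72 h, 3 rose and 2 fell in females (45.5% of genes called, 26.7% as higher and 18.8% as lower), and 6 rose and 2 fell in males (36.3%, 20.8% and 15.5%). At 24 h Hk2 rose by 1.80 ± 0.21 in females and 2.23 ± 0.22 in males. Its 72 h rise was 2.28 ± 0.26 in females and 2.64 ± 0.27 in males. For Slc16a3 the 24 h rise was 2.18 ± 0.24 in females and 2.27 ± 0.24 in males, and the 72 h rise 2.73 ± 0.28 in females and 2.34 ± 0.30 in males. Adm at 72 h was 0.85 ± 0.39 in females (adjusted p = 0.0737) and 1.13 ± 0.40 in males (adjusted p = 0.024). The male call was lost without LM2 (0.91, adjusted p = 0.108), without PM2 (1.03, adjusted p = 0.067) and within batch B alone (adjusted p = 0.265), and the number of members called in males at 72 h was as low as 4 when 1 mouse was left out. Without LF3 the female value was 1.19 (adjusted p = 0.00124), and Pgk1 was called in females too (0.25, adjusted p = 0.0186). Without PF1 the male calls of Vegfa at 24 h and of Pgk1 and Bnip3 at 72 h and the female call of Bnip3 at 72 h were lost. That female call (-0.26 ± 0.11, adjusted p = 0.0439) was lost on leaving out any 1 of 16 mice, under DESeq2 (adjusted p = 0.0668), with its size factors in edgeR (0.0839), with every gene of at least 1 count (0.106) and within batch B (0.215), while without LF3 it was -0.45 (adjusted p = 0.000111) and with no batch term -0.66. The difference between the sexes was tested as an interaction: no member was called at 24 h or 72 h. No gene of the 19126 was called either (edgeR), with 299 and 580 at an unadjusted p under 0.05. The interaction of Hk2, females minus males, was -0.43 ± 0.29 at 24 h (95% interval -1.0005 to 0.14) and -0.35 ± 0.29 at 72 h (-0.93 to 0.22). No member differed between females and males within naive ipsilateral cortex (0.0366% of genes called, 0.0105% as higher in females and 0.0261% as lower), within 24 h (0.0366%, 0.0105% and 0.0261%) or within 72 h ipsilateral cortex (0.0314%, 0.0105% and 0.0209%).

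**Figure D5:**
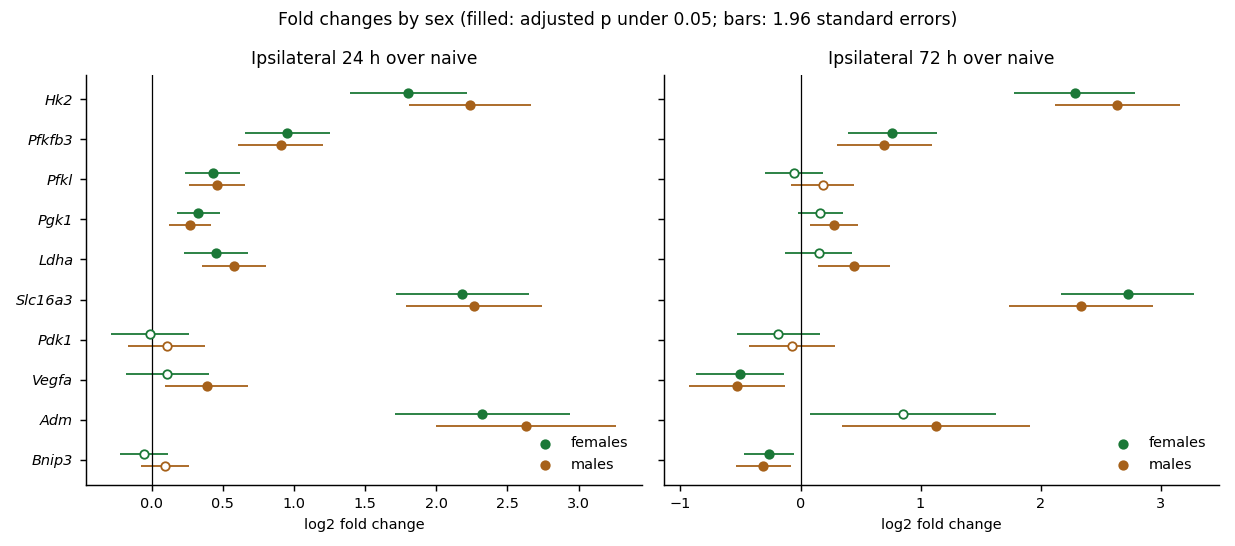
Log2 fold changes of injured over naive ipsilateral cortex by sex (females above males) at 24 h and at 72 h, with bars of 95% intervals and filled points where adjusted p was under 0.05. The intervals of the sexes overlap for every gene.

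The rest of the pathway was described from lists of other genes, with the counts called against naive ipsilateral cortex. Of all 19126 genes tested, 43.0% were called at 24 h (22.9% as higher and 20.1% as lower). At 72 h 48.5% were called (27.8% as higher and 20.7% as lower). These shares also stand beside the counts of the next paragraphs, and those within batch B alone are given in the last section. No list was tested against them. Of 16 other glycolytic genes 7 rose and 2 fell at 24 h, and 1 rose and 3 fell at 72 h (3 and 3 without LF3). Within batch B alone the counts were 1 and 2 at 24 h, and 1 and 4 at 72 h. The median log2 change of the 16 was 0.13 at 24 h and -0.09 at 72 h. Hk3 rose by 2.36 ± 0.24 at 24 h and 3.19 ± 0.33 at 72 h. Ldhb, the lactate dehydrogenase subunit of oxidative tissue, fell (log2 -0.56 ± 0.09 at 24 h and -0.86 ± 0.14 at 72 h). Aldolase A (Aldoa, 0.38 ± 0.07) and the pyruvate kinase Pkm (0.26 ± 0.05) rose at 24 h, though neither was called within batch B alone. Aldoc, the aldolase of astrocytes, fell at 24 h (-0.51 ± 0.12) and at 72 h (-1.08 ± 0.19). The phosphofructokinase subunit Pfkm fell at 72 h (-0.32 ± 0.10). Pfkm was not called without LF3 (-0.23, adjusted p = 0.0509). Of 4 glucose and lactate transporters 3 rose and 1 fell at 24 h, with a median of 0.45, and 2 rose at 72 h, with a median of 0.17. Slc16a1, which encodes MCT1, rose by 0.93 ± 0.08 at 24 h and 1.27 ± 0.12 at 72 h, and Slc2a1, which encodes the glucose transporter GLUT1, by 0.58 ± 0.10 and 0.44 ± 0.14. The neuronal glucose transporter Slc2a3 rose at 24 h (0.31 ± 0.09) and Slc16a7 fell (-0.45 ± 0.12). Within batch B alone, Slc2a1, Slc2a3 and Slc16a7 were not called at 24 h, and the 72 h call of Slc2a1 was lost there and without mouse LM2 (0.31, adjusted p = 0.0913).

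Of 9 genes at the entry of pyruvate into mitochondria, 1 rose and 3 fell at 24 h, and 1 rose and 4 fell at 72 h (medians -0.10 and -0.18). Pdp1, the phosphatase that activates pyruvate dehydrogenase, fell (-0.85 ± 0.14 at 24 h and -1.17 ± 0.21 at 72 h), as did Pdhb, a subunit of that enzyme (-0.20 ± 0.05 and -0.30 ± 0.07). The carrier subunit Mpc2 fell (-0.28 ± 0.09) and the kinase Pdk2 rose (0.19 ± 0.06) at 24 h. None of these 4 was called at 24 h within batch B alone. At 72 h the kinase Pdk4 rose (0.53 ± 0.16) and the subunit Pdha1 fell (-0.29 ± 0.12), a call lost without LF3 (-0.11, adjusted p = 0.118) and in several other fits.

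Of 10 genes of HIF and its regulation, 2 rose and 7 fell at 24 h, and 1 rose and 5 fell at 72 h (medians -0.20 and -0.23). Hif1a rose by 0.49 ± 0.09 at 24 h and 1.11 ± 0.13 at 72 h. Hif3a, which encodes an alpha subunit with inhibitory forms, fell (-1.44 ± 0.19 at 24 h and -1.69 ± 0.30 at 72 h). At 24 h Epas1, the HIF-2 alpha gene (-0.31 ± 0.06), and the prolyl hydroxylase gene Egln1 (-0.34 ± 0.05) fell, Epas1 not within batch B alone. Scaled by total counts, 2 of the 10 rose and 3 fell at 24 h. At 72 h the partner subunit Arnt2 (-0.61 ± 0.11) and the asparaginyl hydroxylase Hif1an (-0.50 ± 0.10) fell. Of 20 other HIF targets, Epo did not pass the filter on low counts. Among the 19 tested, 9 rose and 3 fell at 24 h, and 8 rose and 4 fell at 72 h (6 and 5 without LF3), with medians of 0.29 and 0.24. The lipase inhibitor Angptl4 rose by 2.61 ± 0.23 at 24 h and 2.18 ± 0.31 at 72 h, and the collagen lysyl hydroxylase Plod2 by 1.26 ± 0.15 and 1.80 ± 0.21. The stanniocalcin gene Stc2 rose at 24 h (1.9574 ± 0.22) and the carbonic anhydrase gene Car9 at 72 h (3.33 ± 0.52).

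The receptors of the secreted members were tested beside them. Of 8 receptor genes for VEGF-A and adrenomedullin, 2 rose and 2 fell at 24 h (median 0.07), and 6 rose and 1 fell at 72 h (median 1.26; 5 and 2 without LF3). The VEGF co-receptors Nrp2 (0.80 ± 0.11 at 24 h and 1.52 ± 0.15 at 72 h) and Nrp1 (0.76 ± 0.11 and 1.29 ± 0.17) rose at both times. At 72 h the VEGF receptor Kdr (1.22 ± 0.18) and the adrenomedullin receptor Calcrl (1.38 ± 0.21) rose. Ramp2 and Ramp3, partners of Calcrl, fell at 24 h (-0.58 ± 0.22 and -0.55 ± 0.17), Ramp2 not called without mouse KM3 (adjusted p = 0.0512) or within batch B, and Ramp3 not called within batch A. At 72 h, when Vegfa was lower than in naive cortex, these receptor genes were thus mostly higher.

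Markers of other cell types moved with the same groups. The summed level of 5 monocyte and macrophage markers was 7.46 to 25.3 CPM (median 12.5) in naive, 41.7 to 222 CPM (median 82.3) in 24 h and 227 to 1145 CPM (median 422) in 72 h ipsilateral cortex, and 4 of 5 rose at 24 h and 5 of 5 at 72 h. The 6 neutrophil markers summed to 0.120 to 8.42 CPM (median 0.261) in naive, 12.0 to 378 CPM (median 37.1) in 24 h and 3.17 to 45.5 CPM (median 8.67) in 72 h cortex. 1 of these markers was at 0 in all naive ipsilateral libraries, and all 5 that passed the filter rose at both times. The 4 microglial markers summed to 168 to 213 CPM (median 191), 139 to 200.1 CPM (median 175) and 226 to 886 CPM (median 620.3) in naive, 24 h and 72 h cortex. Of these, 1 rose and 2 fell at 24 h, and all 4 rose at 72 h. The 4 endothelial markers summed to 86.4 to 124 CPM (median 109.6), 128 to 189 CPM (median 146) and 216 to 452 CPM (median 308) in naive, 24 h and 72 h cortex, with 2 higher and 1 lower at 24 h and all 4 higher at 72 h. The 6 neuronal markers summed to 5884 to 6817 CPM (median 6357), 5288 to 6758 CPM (median 6101) and 2812 to 13460 CPM (median 4462) in naive, 24 h and 72 h cortex (the highest at 72 h being LF3), and 1 rose and 3 fell at 72 h. The 1 that rose was Slc17a7 (0.96 ± 0.30). Between sides at 72 h every neuronal marker was called lower on the injured side, from Slc17a7 (-0.19 ± 0.07) to Snap25 (-0.93 ± 0.06). Medians of the summed astrocytic markers were 4683, 3906 and 5170 CPM in naive, 24 h and 72 h cortex, of the oligodendrocytic 2023, 2517 and 3893 CPM, of the fibroblast 31.5, 39.1 and 141.8 CPM and of the red cell markers 31.3, 76.3 and 131.9 CPM. Astrocytic markers went opposite ways: at 24 h Gfap rose (4.09) and Slc1a2 (-0.80), Slc1a3 (-0.58) and Gja1 (-1.25) fell. At 72 h Gfap (5.07) and Aqp4 (1.95) rose and Slc1a2 fell (-1.03). Of the fibroblast markers, Dcn (1.19) and Lum (1.17) rose and Ogn fell (-3.10) at 24 h. The part of these cell types in the changes of the 10 genes was not tested.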

How the data were processed

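The deposited table holds raw read counts per gene and library, which the authors made. The submitters' processing notes name the aligner HISAT2 2.0.5 and the build mm10. For the counting tool, its annotation and its strand setting nothing was found in the labels, so overlapping genes may share counts. Of 54532 Ensembl identifiers, 54495 matched a symbol in GENCODE M21, and the unmatched rows held 0.013% of counts. Each replicate is a separate mouse, named in the labels. The 10 genes and all other lists were chosen with earlier results of these data known. Of each other list the text gives the counts called and up to 4 genes with the smallest p at each time, of which 1 is not reported here.

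Counts were fitted with edgeR 4.0.16 (quasi-likelihood test, TMM factors, filterByExpr, R 4.3.3, limma 3.58.1). Group (sex by time) and batch were terms within a side. The animal was a block between sides, since both punches share the animal name in the labels. Contrasts are equal-weight means of females and males, tests are two-sided, and p-values were adjusted over all genes tested (Benjamini-Hochberg) and called under 0.05. Standard errors are the log2 fold change over the square root of F. The library labelled PM1 ipsilateral entered no fit, so the side fit held 86 libraries of 43 mice. Totals of 10604917 to 26357622 counts per library set the precision, which is lowest for Adm, Hk2 and Slc16a3 in naive cortex. Alternatives were DESeq2 1.42.0, its size factors, total counts, no filter beyond 1 count, no batch term, single batches, no block, and mice left out in turn. Leaving out LF3 was added after the data were seen. The script was tested on simulated counts.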

Additional observations from a re-analysis of the deposited data

Results flagged for a closer look

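Within groups of 4 to 10 libraries of 1 sex, time and side, 15 of 120 held a lowest or highest value far from the rest (Dixon's 95% limit), where chance flags about 1 in 20. Of the 15, 9 were LF3. Contralaterally LF3 was lowest in its group for Hk2 (2.01 CPM, next 3.963), Pfkl (140.9, next 168.6), Pgk1 (255.0, next 358.7) and Pdk1 (23.29, next 91.94), and highest for Slc16a3 (33.69, next 5.754), Vegfa (113.1, next 85.22) and Bnip3 (89.72, next 73.9). Ipsilaterally it was lowest for Hk2 (4.64, next 22.94) and highest for Bnip3 (75.34, next 53.93). The other 6 were single values: ipsilateral Pgk1 in naive female KF2 (420.2 CPM, next 321.4), ipsilateral Slc16a3 in the 24 h female RF1 (30.3, next 15.8), contralateral Pdk1 in the 24 h female QF1 (128.7, next 100.3), ipsilateral Pdk1 in naive male EM3 (99.32, next 81.57), ipsilateral Vegfa in the 72 h female SF3 (78.61, next 60.01) and contralateral Bnip3 in naive male KM3 (64.13, next 79.35).

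The ipsilateral excess over the contralateral side differed between 72 h and 24 h, by a test of that difference, for 8 genes: Hk2 (0.78 on the log2 scale), Pfkfb3 (-0.36), Pfkl (-0.37), Pgk1 (-0.16), Ldha (-0.41), Vegfa (-0.93), Adm (-0.93) and Bnip3 (-0.57).

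The ipsilateral library of PM1, a mouse at 72 h that entered no comparison, lay above the highest naive ipsilateral library for 7 genes: Hk2 (22.45 CPM, highest naive 5.879), Pfkfb3 (78.82, 72.14), Pfkl (229.1, 213.1), Pgk1 (501.5, 420.2), Ldha (437.8, 366.2), Slc16a3 (19.31, 4.874) and Adm (3.654, 2.177).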

How the results depend on the processing

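No called value changed direction under the alternatives that were run. Outside the fits that left out 1 mouse each, 1539 values kept their side of the threshold, 17 gained a call and 61 lost one. In fits that left out each of 43 ipsilateral mice, 5054 kept it, 10 gained and 96 lost. The number of members called then ranged from 7 to 8 at 24 h against naive, 6 to 8 at 72 h, 3 to 5 at 72 h against 24 h, 7 to 7 and 3 to 7 in females at 24 h and 72 h, and 7 to 8 and 4 to 8 in males. Leaving out mice in turn was not run for the side and contralateral fits, where only PF1 and LF3 were left out. Batch B alone, with fewer mice, called 4 members at 24 h (23% of all genes), 5 at 72 h (33.6%), 2 at 72 h against 24 h (20.6%), 3 and 3 in females at 24 h and 72 h (9.05% and 22.4%), 4 and 2 in males (7.72% and 16%), 2 for the change in side difference (10.1%) and 0 contralaterally at 72 h against 24 h (0.0165%). With every gene of at least 1 count, 5 were called in males at 72 h. For this fit and the ipsilateral fits that left out 1 mouse each, the share of all genes called is not given here. Contralateral counts were small: 1 at 24 h under DESeq2 and without LF3, and at 72 h against 24 h 0 without LF3 or with total counts, and 2 without PF1 or without a batch term. The cause was not tested. Total counts in place of TMM moved the median of all genes to 0.09 at 24 h, 0.08 at 72 h and 0.11 between sides at 72 h.

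Without the animal block the paired side comparisons called 8 members at 24 h (41.8% of all genes), 7 at 72 h (57.3%), 0 in naive mice (no gene, 409 at an unadjusted p under 0.05) and 6 for the change between times (29.2%), where Pfkfb3 and Pgk1 were lost. Low counts of Adm, Hk2 and Slc16a3 in naive cortex limit their fold changes most.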
